A study of Mus musculus with 6 samples.

Results

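Retinal pigment epithelium (RPE) transport and channel genes encode the proteins that move ions, water, lactate, amino acids and small carriers across the RPE layer. The 10 genes described here were chosen by symbol: Best1, Kcnj13 and Clcn2 (ion channels), Atp1b1 (a sodium pump subunit), Slc16a8, Slc16a1 and Bsg (lactate transport), Slc6a20a (amino acid transport), Aqp1 (water) and Ttr (a secreted carrier). Each of the 10 symbols was found once among the 33924 genes of the deposited table. The libraries came from RPE/choroid of 3 young and 3 aged wild-type C57BL/6J mice, with no treatment and with 2 eyes per sample. By the titles the young mice were 1 to 2 months old and the aged ones 20 to 24 months, the age field has 22 to 24 months for the latter, and the methods give a slightly later range for the young mice. The labels describe male mice, whereas the methods describe both sexes. Poly(A)-selected RNA was sequenced to compare gene expression between the age groups.

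The RPE is a single layer of pigmented cells between the photoreceptors and the choroid, the vascular bed that feeds the outer retina. Its apical membrane carries the sodium pump and potassium channels that set the ion composition around the outer segments, and its basolateral membrane carries chloride channels that allow fluid to leave towards the choroid. Lactate made by photoreceptors is taken up and handed on by monocarboxylate transporters that need the chaperone basigin, and retinol reaches and leaves the tissue bound to carrier proteins.

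The table holds 1 line per gene, with the mean normalized count over the 6 libraries, the log2 fold change and its standard error (SE), and no value for a single library. The level in each mouse, the SD within a group and the overlap of the groups therefore could not be given, and an SE is the only measure of the spread between samples. A positive log2 fold change means a higher level in aged RPE/choroid, and a gene was called when its adjusted p-value (Benjamini-Hochberg over 18196 genes, from the deposited DESeq2 Wald test) was under 0.05. By this rule 23.3% of the tested genes were called, 12.9% as higher and 10.4% as lower in aged RPE/choroid. The higher calls were 55.5% of all calls, and 33.1% with what is called scaling to library totals here. No counts were rescaled, since the totals of single libraries are unknown. Instead a constant of 0.13, estimated from the deposited means and fold changes, was subtracted from every log2 fold change with its SE unchanged. In bulk tissue, fewer cells of a type and less RNA per cell cannot be told apart. The tissue label was borne out by its defining transcripts, since Rpe65, the retinoid isomerase of the RPE, had a mean normalized count of 113930 and Rlbp1, a retinaldehyde carrier, 102636. Photoreceptor RNA was present too, since each of 16 rod markers averaged at least 1355 normalized counts.

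All 10 genes were abundant enough to be tested. Best1 and Kcnj13 rose with age, none of the 10 was called lower, and 8 were not called. With scaling to library totals 1 was called higher (Best1) and 1 lower (Atp1b1), and the median log2 fold change was 0.08. Thus 2 of 10 genes were called higher where 12.9% of all tested genes were. The log2 fold changes ranged from -0.19 for Atp1b1 to 0.98 for Best1 with a median of 0.21, against -0.02 over all tested genes. Values were positive for 6 genes and negative for 4. Both called genes encode channels, and the third channel gene, Clcn2, was not called.

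**Figure D1:**
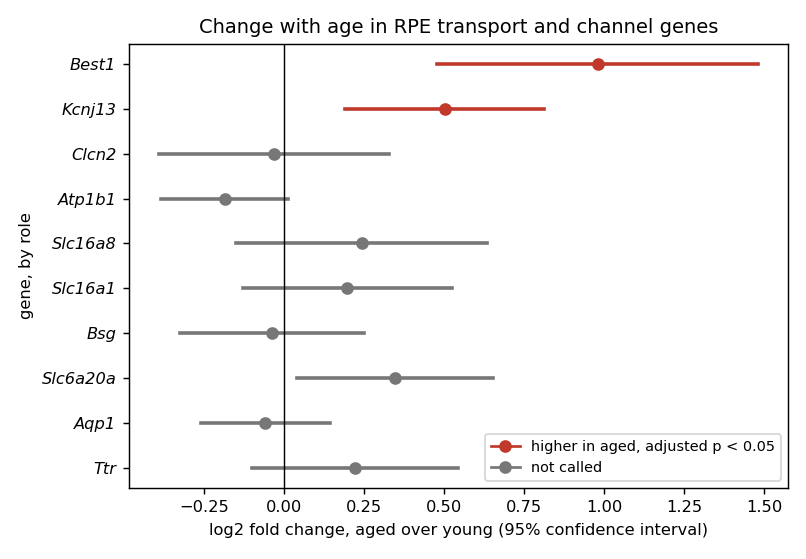
Log2 fold change of each of the 10 genes, aged over young, with its 95% confidence interval from the deposited standard error, ordered by role from ion channels at the top to the secreted carrier at the bottom. Red marks the 2 genes called higher in aged RPE/choroid and grey the 8 that were not called, and the interval of Slc6a20a also lies to the right of 0.

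Kcnj13 encodes the inwardly rectifying potassium channel Kir7.1 of the apical membrane, where it returns the potassium that the sodium pump brings in. The gene (ENSMUSG00000079436) is at 87386363 to 87394729 on chromosome 1 (GRCm38, minus strand), inside Gigyf2 on the opposite strand. Its mean normalized count was 4525, which together with the fold change places the level near 3746 in young and 5303 in aged RPE/choroid. The ratio of aged to young was 1.42 (95% confidence interval 1.14 to 1.76, log2 fold change 0.50, SE 0.16, DESeq2 Wald test with adjusted p = 0.00983). The Wald statistic, which is the fold change over its SE, was 3.16, and 11.8% of all tested genes had a higher fold change. An exon of Gigyf2 overlaps an exon of Kcnj13, and Gigyf2 was not called (mean normalized count 2717, log2 fold change -0.15, adjusted p = 0.306). With scaling to library totals Kcnj13 lost its call, since the log2 fold change became 0.37 and the adjusted p 0.0644.

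Because Kcnj13 was the more abundant per kilobase of the pair that rose, the stretch before its start is shown as RefSeq gives it for GRCm38.p6. It spans 250 bases on the minus strand at chr1:87394730-87394979, within the bounds of Gigyf2. Capitals mark a match to the E-box CATGTG or its reverse complement CACATG, a word that the RPE transcription factor MITF can bind.
Kcnj13: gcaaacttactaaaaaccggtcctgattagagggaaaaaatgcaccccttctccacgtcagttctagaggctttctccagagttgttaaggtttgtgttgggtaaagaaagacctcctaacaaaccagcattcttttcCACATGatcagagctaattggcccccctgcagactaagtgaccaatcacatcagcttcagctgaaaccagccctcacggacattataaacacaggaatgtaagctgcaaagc
The word CATGTG, searched on both strands, is present in the same 250 bases of 12.3% of the 32817 promoters in the table and in 1 of the 8 members with an entry. The palindromic E-box CACGTG was found in 6.02% of all promoters and among the members in that of Slc16a1. The word TAATCC, which the homeodomain factor OTX2 can bind, was found on either strand in 6.25% of all promoters and among the members in that of Best1. Such a match describes the letters of these stretches and says nothing of binding.

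Best1 encodes bestrophin 1, a calcium-activated chloride channel of the basolateral membrane that is altered in Best vitelliform macular dystrophy. The gene (ENSMUSG00000037418) is at 9985174 to 10001633 on chromosome 19 (GRCm38, minus strand). Its mean normalized count was 81.8, which with the fold change places the level near 55.0 in young and 109 in aged RPE/choroid. The ratio of aged to young was 1.97 (95% confidence interval 1.39 to 2.79, log2 fold change 0.98, SE 0.26, DESeq2 Wald test with adjusted p = 0.00124), and 4.11% of tested genes had a higher fold change. Best1 kept its call with scaling to library totals and with the trend of length and GC content removed, with adjusted p-values of 0.00584 and 0.00145.

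Best1 sits between close neighbours whose values also moved. The ferritin heavy chain gene Fth1 ends 75 bases from the 3' end of Best1 on the opposite strand, and it averaged 66350 normalized counts and had a log2 fold change of 2.62 (SE 0.17, adjusted p = 3.65e-52). Rab3il1, which encodes an exchange factor for Rab GTPases, starts 35 bases from the start of Best1 on the opposite strand and was also called higher (mean normalized count 1213, log2 fold change 0.35, SE 0.13, adjusted p = 0.0257). The short stretch that separates both starts is shown on the strand of Best1, at chr19:10001634-10001668 of GRCm38.p6, with no capitals because none of the words above occurs in it.
Best1: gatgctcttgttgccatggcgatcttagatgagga
Whether RNA of these neighbours takes part in the count of Best1 was not tested. The exons of Best1 overlap no other annotated gene, and 99.8% of its words of 50 bases occur in no other gene.

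Clcn2 encodes ClC-2, a voltage-gated chloride channel whose loss in mice causes degeneration of photoreceptors. It is at 20702964 to 20717746 on chromosome 16 (GRCm38, minus strand), and its mean normalized count was 3100. The ratio of aged to young was 0.978 (95% confidence interval 0.762 to 1.26, log2 fold change -0.03, SE 0.18, DESeq2 Wald test with adjusted p = 0.927). The interval lies on both sides of no change, so a change within its bounds is not excluded with 3 libraries a group. Exons of Fam131a and Polr2h on the opposite strand overlap the ends of Clcn2, and both had log2 fold changes of 0.05 and were not called.

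**Figure D2:**
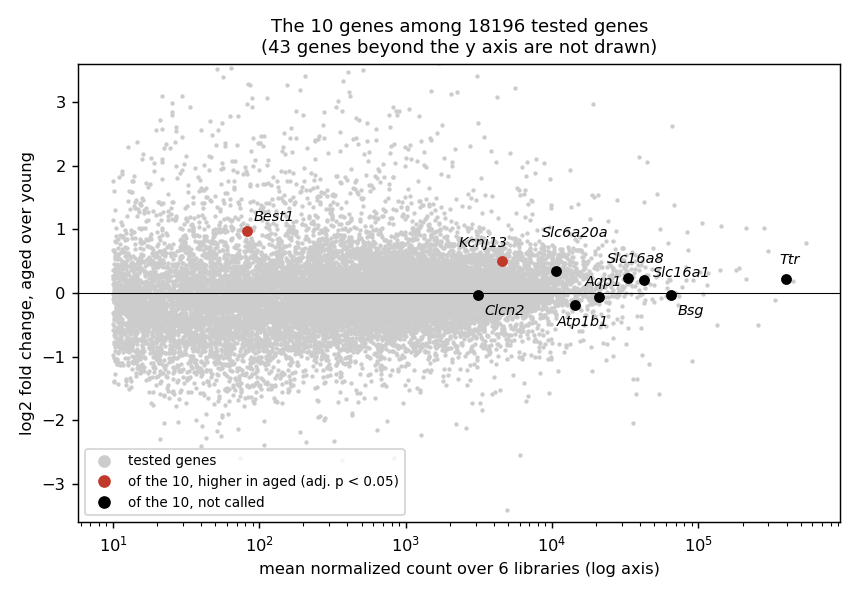
Log2 fold change, aged over young, against the mean normalized count (log axis) for 18196 tested genes in grey, with the 10 genes named, red where called higher and black where not called. The genes other than Best1 lie at mean counts of 3100 and more, between -0.19 and 0.50, and Best1 lies at 81.8 with the largest fold change of the 10.

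Atp1b1 encodes the β1 subunit of the sodium pump, which helps bring the pump to the membrane and in the RPE lies on the apical side. It is at 164437109 to 164458355 on chromosome 1 (GRCm38, minus strand). The mean normalized count was 14262 and its fold change the lowest of the 10. Aged over young gave a ratio of 0.879 (95% confidence interval 0.766 to 1.01, log2 fold change -0.19, SE 0.10, DESeq2 Wald test with adjusted p = 0.182). It was not called, but with scaling to library totals it was called lower at -0.32 (adjusted p = 0.0103). Nme7, a nucleoside diphosphate kinase gene whose exons overlap it on the opposite strand, was not called (-0.35, SE 0.18). The other β subunit genes Atp1b3 and Atp1b2 had log2 fold changes of -0.09 (SE 0.16) and -0.19 (SE 0.25), and neither was called. Of the 12 other pump and FXYD genes, all tested, 2 were called higher and 1 lower, with a median log2 fold change of -0.06 against -0.02 over all genes. The higher ones were Fxyd5 (1.11, SE 0.18) and Fxyd6 (0.72, SE 0.11), which encode small modulators of the pump. The lower one was Atp1b4 (-1.77, SE 0.35), a β family gene known mainly from muscle, at a mean normalized count of 58.1.

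Slc16a8 encodes MCT3, the monocarboxylate transporter of the basolateral RPE membrane, and its mean normalized count was 33223. It is at 79251014 to 79254761 on chromosome 15 (GRCm38, minus strand). The ratio of aged to young was 1.18 (95% confidence interval 0.90 to 1.55, log2 fold change 0.24, SE 0.20, DESeq2 Wald test with adjusted p = 0.418). Slc16a1 encodes MCT1, the apical transporter of the same family, which many other cells share, and its mean normalized count was 42442. It is at 104638668 to 104658462 on chromosome 3 (GRCm38, plus strand), and its ratio was 1.15 (95% confidence interval 0.914 to 1.44, log2 fold change 0.20, SE 0.17, adjusted p = 0.429 from the same DESeq2 test). Both values were positive, and both intervals included no change.

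Bsg encodes basigin, the chaperone that both transporters need to reach the membrane. It is at 79704491 to 79711969 on chromosome 10 (GRCm38, plus strand). Its mean normalized count was 64551, and the ratio of aged to young was 0.973 (95% confidence interval 0.798 to 1.19, log2 fold change -0.04, SE 0.15, DESeq2 Wald test with adjusted p = 0.884). The alternative chaperones embigin and neuroplastin were not called either, with log2 fold changes of 0.24 (SE 0.21) for Emb and -0.12 (SE 0.10) for Nptn. Among the 13 tested genes of 14 other monocarboxylate transporters and chaperones, 1 was called higher and 1 lower, and the median log2 fold change was -0.12, against 0 higher and 2 lower with a median of -0.25 when scaled to library totals. Slc16a7 (MCT2) rose, with a log2 fold change of 0.54 (SE 0.20) at a mean normalized count of 167, and lost its call with that scaling (0.41). Slc16a4, an orphan member of the family, fell, with a log2 fold change of -1.14 (SE 0.20) at 986. Slc16a3 (MCT4), the glycolytic isoform, was not called and had -0.28 (SE 0.19), and Slc2a1, the glucose transporter GLUT1 that supplies the tissue that makes the lactate, had 0.09 (SE 0.17).

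Slc6a20a encodes a sodium-dependent transporter of proline and other imino acids. It is at 123634770 to 123678885 on chromosome 9 (GRCm38, minus strand). The mean normalized count was 10701, near 9426 in young and 11975 in aged RPE/choroid. Aged over young gave a ratio of 1.27 (95% confidence interval 1.03 to 1.57, log2 fold change 0.35, SE 0.16). It was not called, with an adjusted p = 0.0946 in the DESeq2 Wald test across all genes (0.0268 unadjusted). The neighbouring copy Slc6a20b, 2204 bases away, had the same log2 fold change of 0.35 (SE 0.17, adjusted p = 0.125) at a mean normalized count of 921. Only 84.7% of the words of 50 bases of Slc6a20a are its own and 15.3% occur in Slc6a20b, so reads can be split between the copies and their values are not independent. Exons of 3 genes on the opposite strand also overlap it, among them Ccr9, which had a mean normalized count of 18.1.

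Aqp1 encodes the water channel aquaporin 1, which red cells and the endothelium also make. It is at 55336432 to 55348555 on chromosome 6 (GRCm38, plus strand). Its mean normalized count was 20834, and the ratio of aged to young was 0.960 (95% confidence interval 0.834 to 1.10, log2 fold change -0.06, SE 0.10, DESeq2 Wald test with adjusted p = 0.733). On the log2 scale the intervals of Atp1b1 and Aqp1 were the narrowest of the 10. Red cell transcripts fell at the same time, since 5 of the 7 tested red cell markers were called lower with a median log2 fold change of -1.07, and 5 further markers of that list are not used here. Endothelial markers had a median of -0.09, with 0 of 12 called higher and 2 lower, or 4 lower with scaling to library totals. The part of both cell types in the value of Aqp1 was not tested.

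Ttr encodes transthyretin, a carrier of thyroid hormone and of the retinol-binding protein that the RPE and the choroid plexus secrete. Its mean normalized count was 397586, and its fold change places the level near 367027 in young and 428145 in aged RPE/choroid. The ratio of aged to young was 1.17 (95% confidence interval 0.933 to 1.46, log2 fold change 0.22, SE 0.16, DESeq2 Wald test with adjusted p = 0.353), so Ttr was not called. Among 9 other genes of retinol and thyroid hormone carriage, all tested, 1 was called higher and 1 lower, with a median log2 fold change of 0.12 that became -0.01 with scaling to library totals. Dio2, which activates thyroid hormone, rose (0.70, SE 0.19), and Crym, a cytosolic thyroid hormone binding protein, fell (-0.69, SE 0.25). Rbp4, the retinol-binding protein, had a mean normalized count of 35.3, and its membrane receptor Stra6 had 7693 with a log2 fold change of 0.42 (SE 0.20, adjusted p = 0.115). Of the 8 choroid plexus and ciliary epithelium markers, which include genes that the RPE shares, 0 were called higher and 1 lower, with a median log2 fold change of -0.59. Their mean normalized counts ran from 12.0 for Kl, which encodes klotho, to 68137 for Enpp2, which encodes autotaxin. The part of such cells in the value of Ttr was not tested.

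Levels of different genes were compared only per length, as the mean normalized count per kilobase of the main annotated transcript. On this scale Ttr stood first of the 10 with a level of 335233 and ranked second of 17692 tested genes with a length. Bsg followed with 42301, then Slc16a8 with 18396 and Slc16a1 with 9589. Aqp1 (7931), Atp1b1 (5528), Slc6a20a (3917) and Kcnj13 (3563) came next, and Clcn2 had 991. Best1 was last with a level of 39.3 per kilobase, at rank 14156, where the RPE marker Rpe65 had 61154. The reason for so low a level of Best1 was not tested. The order carries no error, because no value per library was given, and neighbours such as Slc6a20a and Kcnj13 cannot be told apart by it.

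**Figure D3:**
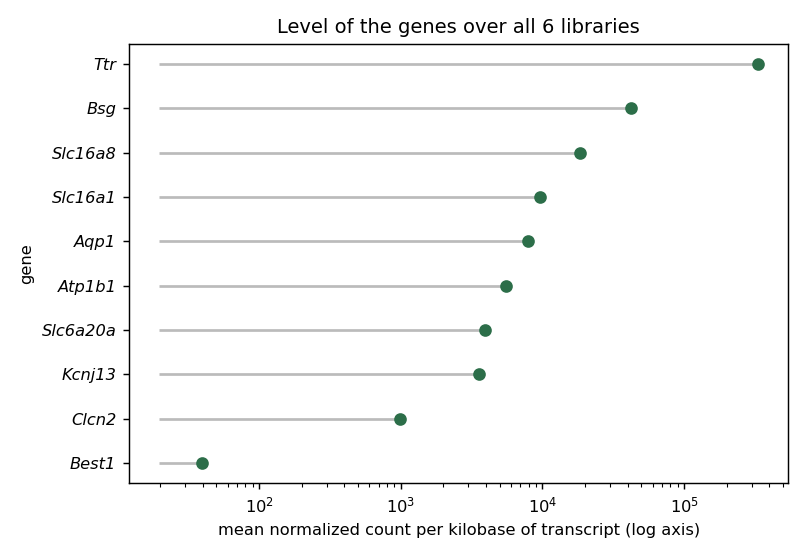
Mean normalized count per kilobase of transcript on a log axis for each of the 10 genes, averaged over the 6 young and aged libraries, as points with grey guide lines. Levels run from 39.3 for Best1 to 335233 for Ttr, and the other 8 lie between 991 and 42301.

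The SE shows how far each gene could be resolved. Among genes within a factor of 2 of its own abundance, Clcn2 had an SE higher than 89.9% of them and Slc16a8 higher than 88.9%. Kcnj13 (80.6%), Slc6a20a (79.5%) and Slc16a1 (79.1%) were similar. Atp1b1 and Aqp1, which many cell types make, had an SE higher than 5.80% and 8.30% of such genes. The SE of Best1 was higher than 18.1% of genes of like abundance, though it was the largest of the 10 in absolute size. Rod photoreceptor markers had SEs from 0.25 to 0.42 with a median of 0.40, against 0.16 for the 10 genes and 0.16 for RPE markers. The largest SE of any tested gene was 0.43. Because the deposited values are apparently moderated, SEs this close to the largest may understate the spread between mice.

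**Figure D4:**
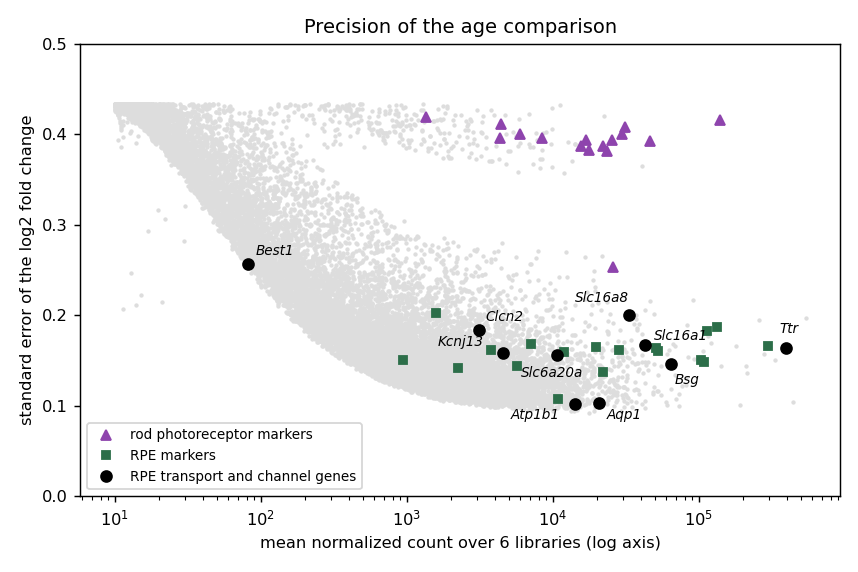
Standard error of the log2 fold change against the mean normalized count (log axis) for all tested genes in grey, the 10 genes as black circles, RPE markers as green squares and rod photoreceptor markers as purple triangles. The 10 genes lie between 0.10 and 0.26, and 15 of the 16 rod markers lie above 0.38.

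Markers of the cells in RPE/choroid moved beside the 10 genes as follows. Of 18 RPE markers, 5 were called higher and 2 lower with a median log2 fold change of 0.19, near the 0.21 of the 10 genes, and 3 were called higher and 3 lower (median 0.06) with scaling to library totals, which ended the calls of Ezr and Cdh1. With the length and GC trend removed 7 were called higher and 1 lower, and Mitf lost its call. The higher RPE markers were Rgr (0.66, SE 0.17), a retinal G protein-coupled receptor, Sox9 (0.74, SE 0.15), Mertk (0.58, SE 0.16), the phagocytosis receptor, Ezr (0.41, SE 0.14) and Cdh1 (0.37, SE 0.14). The lower ones were Mitf (-0.48, SE 0.14) and Pmel (-0.51, SE 0.19), which melanocytes also express. Rpe65 (0.13, SE 0.18) and Rlbp1 (0.33, SE 0.15) were among the 11 RPE markers that were not called. All 16 rod markers had positive values, from 0.05 to 0.52 with a median of 0.22 (0.09 with scaling to library totals, which turns 5 of them negative), and none was called in the DESeq2 Wald test, with 1 at an unadjusted p under 0.05. Macrophage markers rose in 10 of 13 tested genes with a median of 1.32, as in C1qa with 1.93 (SE 0.15), and fibroblast markers were called lower in 5 and higher in 2 of 9, as in Col1a1 with -2.54 (SE 0.23). Of 8 melanocyte markers 0 were called higher and 3 lower (median -0.18), but 0 lower with the length and GC trend removed and 4 with scaling to library totals. The RPE and melanocytes are both pigmented, and their shares in these values were not tested. Of 12 skeletal muscle markers 1 was called higher and 2 lower (median -0.10), and of 7 Schwann cell markers 1 and 0 (median -0.13). The part of these cell types in the values of the 10 genes, or of the RPE markers called higher or lower, was not tested.

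**Figure D5:**
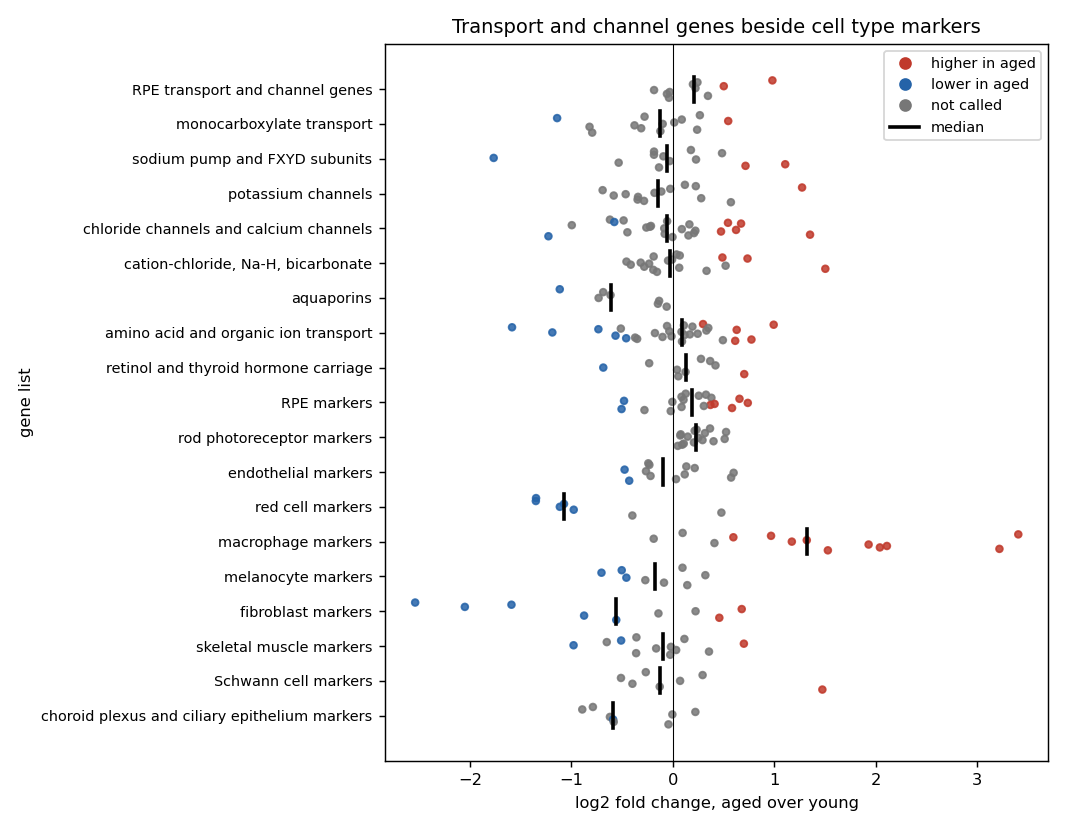
Log2 fold change, aged over young, of every tested gene in the 10 genes, in 8 lists of other transport and channel genes and in 10 lists of cell type markers, red where called higher, blue where called lower and grey where not called, with a black bar at each median. The 10 genes have a median of 0.21 beside 0.19 for RPE markers, while macrophage markers lie far to the right at 1.32 and red cell markers to the left at -1.07.

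Calls among other channel genes went in both directions only in the list of chloride and calcium-permeable channels and their partners. Of 14 potassium channel genes, all tested, 1 was called higher, 0 lower, and the median log2 fold change was -0.15. The one that rose was Kcnj10 (Kir4.1), a channel of glia and also of the RPE, with a log2 fold change of 1.27 (SE 0.21, mean normalized count 310). Of 23 tested chloride and calcium-permeable channel genes and their partners, 5 were called higher and 2 lower with a median of -0.06. With scaling to library totals 4 were called higher and 4 lower (median -0.19), and with the length and GC trend removed 4 and 1 (median 0.03), Clcn5 losing its call there. Trpv2 (1.35, SE 0.17), the lysosomal chloride transporter Clcn7 (0.67, SE 0.11) and Clic4 (0.62, SE 0.14) rose most. Trpm1 (-1.23, SE 0.24, mean normalized count 18820) and the endosomal transporter Clcn5 (-0.58, SE 0.20) fell. Which cells account for these values was not tested. Best2, the bestrophin of the ciliary epithelium, was not called and had -0.62 (SE 0.43). Over all 8 lists 124 of 130 genes were tested, and 18 were called higher and 11 lower with a median of -0.05, whereas scaling to library totals called 12 higher and 20 lower. Without that scaling the called share was 23.4%, near the 23.3% of all tested genes.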

How the data were processed

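Poly(A)-selected RNA of 6 RPE/choroid samples, 3 from each age group, was sequenced. The labels name a stranded total RNA kit after removal of ribosomal RNA. Per the methods, the authors used BBDuk for trimming, STAR for mapping to Ensembl transcripts of GRCm38, Sailfish for quantification with scaling to total counts, and DESeq2 for the comparison. Whether counting used strand is not given in the sources used here. The authors deposited 1 table of their comparison, without values for single libraries.

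The authors deposited mean normalized counts, a signal averaged over the 6 libraries. The log2 fold change and its SE were deposited by the authors as young over aged, apparently moderated towards 0, and the sign was turned here. The header does not state the direction, which was taken from the authors' wording of the contrast and from their counts of calls in each direction. The deposited Wald score equals fold change over SE. The authors deposited a 2-sided p-value for each gene and its adjustment. The depth of single libraries is unknown. The mice are the replicates, and the p-values rest on the spread between these 6 samples.

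The planned use of values per library was not possible, so the deposited comparison was used. Adjusted p-values were recomputed over 18196 genes that had a p-value and averaged at least 10 normalized counts. The adjustment was tested on simulated data with independent genes and the deposited SEs taken as true. That simulation does not test the deposited Wald p-values. Intervals are normal intervals at the 95% level. A level near a value in young or aged RPE/choroid was derived from the mean and the moderated ratio and is approximate. Lengths, GC content, positions and shared words of 50 bases came from GENCODE on GRCm38, promoters from RefSeq. The main transcript was the longest principal one. The members, lists and tests were chosen with earlier results of these data known. Named genes are the members, their partners, up to 3 called genes in each direction from each list and examples of the marker lists, some of which are not reported here. Fth1, Rab3il1, Gigyf2, Ccr9 and the other neighbours were named after their values were seen. Alternatives were other filters, the deposited adjusted p-values, stricter thresholds, 1 shift of all genes, and removal of a robust quadratic trend with length and GC content. The shift, named scaling to library totals, makes the summed levels of the age groups equal. These levels were estimated from the deposited means and fold changes. Python 3.11.15, numpy 2.4.6, pandas 2.3.3, scipy 1.17.1, statsmodels 0.14.6 and matplotlib 3.10.9 were used.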

Additional observations from a re-analysis of the deposited data

How the results depend on the processing

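No paired analysis was possible because the deposited values are not given for single libraries. For the same reason leaving out each replicate, the replicate block and other pseudocounts were not run. Over the alternatives for single genes, 48 of 50 values for the 10 genes kept their direction and their side of the threshold. Other filters and the deposited adjusted p-values leave the log2 fold change as it is. Only the scaling and the trend removal could therefore change a direction. The exceptions were Kcnj13 (log2 fold change 0.37, no longer called) and Atp1b1 (-0.32, now called lower) with scaling to library totals, which subtracts 0.13 from every log2 fold change and moves the median of all tested genes from -0.02 to -0.15. That scaling called 33.1% of calls higher in place of 55.5%, and 63.1% were higher with the length and GC trend removed. Requiring also an absolute log2 value of 1 or more left 1287 of 4235 called genes, 0 of the 10 genes, with Best1 at 0.98, and 10 of 29 other transport and channel genes. At an adjusted p under 0.01 the latter were 18. These falls follow from the added threshold.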

Other observations

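Of 28 tested transporters of amino acids, taurine, creatine and organic ions, 5 were called higher and 5 lower in aged tissue (DESeq2 Wald test, adjusted p under 0.05 over all genes). That is 35.7% of them, beside 23.3% of all tested genes and 23.4% over the 8 transport and channel lists. This share was the highest of the 8 lists, and its difference from all genes was not tested. Slc6a8, the creatine transporter, rose with a log2 fold change of 0.99 (SE 0.15), Slco1c1, a thyroid hormone and organic anion transporter, with 0.77 (SE 0.18), and Slc7a5, a subunit of a large neutral amino acid transporter, with 0.63 (SE 0.24). Slc6a6, the taurine transporter, had a mean normalized count of 25780 and rose by less (0.30, SE 0.12). Slc6a15, a neutral amino acid transporter, fell with -1.59 (SE 0.27), Slc7a11, the cystine transporter, with -1.19 (SE 0.42) and Slc7a2, a cationic amino acid transporter, with -0.73 (SE 0.27). With scaling to library totals 2 were called higher and 8 lower, and Slc7a5 and Slc6a6 lost their calls. With the length and GC trend removed 7 were called higher and 2 lower, and Slc7a5, Slc7a11 and Slc7a2 lost theirs.

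Among 18 ion exchange, bicarbonate and carbonic anhydrase genes, 3 were called higher and 0 lower, with a median log2 fold change of -0.03, against 2 and 3 (median -0.16) with scaling to library totals and 4 and 1 with the length and GC trend removed. They included the membrane-bound carbonic anhydrase gene Car4, with a ratio of aged to young of 2.83 at a mean normalized count of 35.3, and the potassium-chloride cotransporter Slc12a7 (log2 fold change 0.49, SE 0.15), which lost its call with scaling to library totals (0.36). The cotransporter Slc12a2 (0.04, SE 0.16) and the bicarbonate transporters Slc4a2 (-0.05, SE 0.16) and Slc4a5 (-0.23, SE 0.14) were not called. Aquaporins other than Aqp1 had negative values in each of 7 tested genes of 10, with a median of -0.61, and 1 was called lower, the lens gene Mip (-1.11, SE 0.43) at a mean normalized count of 37.1. Their mean normalized counts ran from 19.9 to 1909. The median SE of these 7 genes was 0.39 against 0.18 over all tested genes, so their shared sign was poorly resolved.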
